A study of Mus musculus with 12 samples.

Results

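RNA of type H vessel endothelium was compared with RNA of arterial cells. Both populations came from bone marrow of B6 mice that had received no treatment. The members were the libraries labelled with these populations, 3 of type H vessels and 3 of arterial cells, which made up 6 of the 12 libraries of the series. The other libraries, of CD200-high and of sinusoid-labelled cells, entered the choice of genes tested and the estimate of the spread, but not the differences. The comparison covered 17086 of the 17362 genes listed, after genes with few reads were left out. Marrow cells were released by crushing tibia, femur and iliac bone. Type H cells were sorted as positive for endomucin (EMCN), Sca1 and CD31 and negative for CD45, the leukocyte antigen. The arterial cells, described by the submitters as the other arterial cells, were sorted as positive for Sca1 and CD31 and negative for CD200 and CD45. The type H gate names no CD200 and the arterial gate no EMCN, so that a cell positive for EMCN and negative for CD200 would meet both. All libraries shared the B6 genotype, and the triplicates were prepared from 6 mice. Library names carry mouse numbers that recur in each population. The labels do not say how the mice were divided among libraries or whether equal numbers mean the same mouse. The p-values measure the spread between these libraries.

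Type H vessels are capillaries near the growth plate and along the inner bone surface. They are known for high levels of CD31 and EMCN and for lying beside bone-forming cells, which they are thought to support. Arterial endothelium depends on Notch signalling and carries connexins and an elastic matrix. Marrow sinusoids take up debris through stabilin receptors, and venules display selectins and adhesion molecules through which leukocytes leave or enter the blood.

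The type H libraries held 16.2 to 20.2 M reads (M, 1000000) in listed genes and the arterial libraries 9.55 to 16.2 M. Replicates correlated at a Pearson r of 0.806 to 0.856 across genes, which are not independent replicates. Their counts differed by 52.8 to 125 times the chi-square that counting error gives, so no library was a copy of another. Between 14190 and 15184 genes had reads in a type H library and between 15934 and 16569 in an arterial library. Type H replicate 2 had 3172 listed genes at 0 reads, the largest number of the 6. Reads of genes encoded by mitochondrial DNA made up 2.31% to 3.01% of the type H and 4.75% to 6.52% of the arterial libraries. The part of these differences in the results was not tested.

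Levels are in log2 CPM, the log2 of counts per 1000000 reads (CPM) with 0.5 read added, and a difference of 1 is a 2-fold change. Differences are type H minus arterial, with the standard error (SE) of the limma fit. Genes are said to have risen or fallen in type H cells where the limma adjusted p, over all genes tested, was under 0.05. Of the sorting antigens, the transcripts of EMCN and CD31 were higher in type H cells and that of CD45 was lower. Emcn stood at 9.04, 9.03 and 8.99 log2 CPM in the type H libraries and at 6.10, 7.0 and 6.58 in the arterial libraries. All type H values lay above all arterial values, and Emcn rose by 2.46 ± 0.37 (limma adjusted p = 0.00083). When libraries were scaled to equal medians of pan-endothelial genes, Emcn differed by 0.66 and did not pass (limma adjusted p = 0.23). Pecam1, the gene of CD31, was at 9.06, 8.99 and 8.87 against 7.46, 7.19 and 7.09 and rose by 1.73 ± 0.24 (limma adjusted p = 0.00045). With equal pan-endothelial medians the difference of Pecam1 was -0.07. Emcn and Pecam1 are themselves among the genes that set this scale. Ptprc, the gene of CD45, was at 3.75, 3.55 and 4.62 in type H and at 7.44, 7.17 and 7.63 in arterial libraries. It fell by 3.44 ± 0.36 (limma adjusted p = 9.3e-05), so the arterial libraries, sorted as CD45-negative, held more of this transcript.

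Ly6a, the gene of Sca1, was at 9.30, 8.93 and 8.52 log2 CPM in type H and at 9.65, 9.92 and 9.77 in arterial libraries. The groups did not overlap, yet the difference of -0.86 ± 0.32 did not pass the test (limma adjusted p = 0.078). It did pass when only the 6 libraries were fitted (limma adjusted p = 0.026) or without sinusoid-labelled replicate 3 (limma adjusted p = 0.019). Cd200, the antigen absent from the arterial gate, was at 7.80, 8.12 and 7.49 log2 CPM in type H and at 7.61, 7.63 and 7.81 in arterial libraries. The groups overlapped, with a difference of 0.12 ± 0.16 (limma adjusted p = 0.65). The 3 CD200-high libraries of the series lay above both groups for Cd200, at 9.81, 9.83 and 9.80 log2 CPM.

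**Figure D1:**
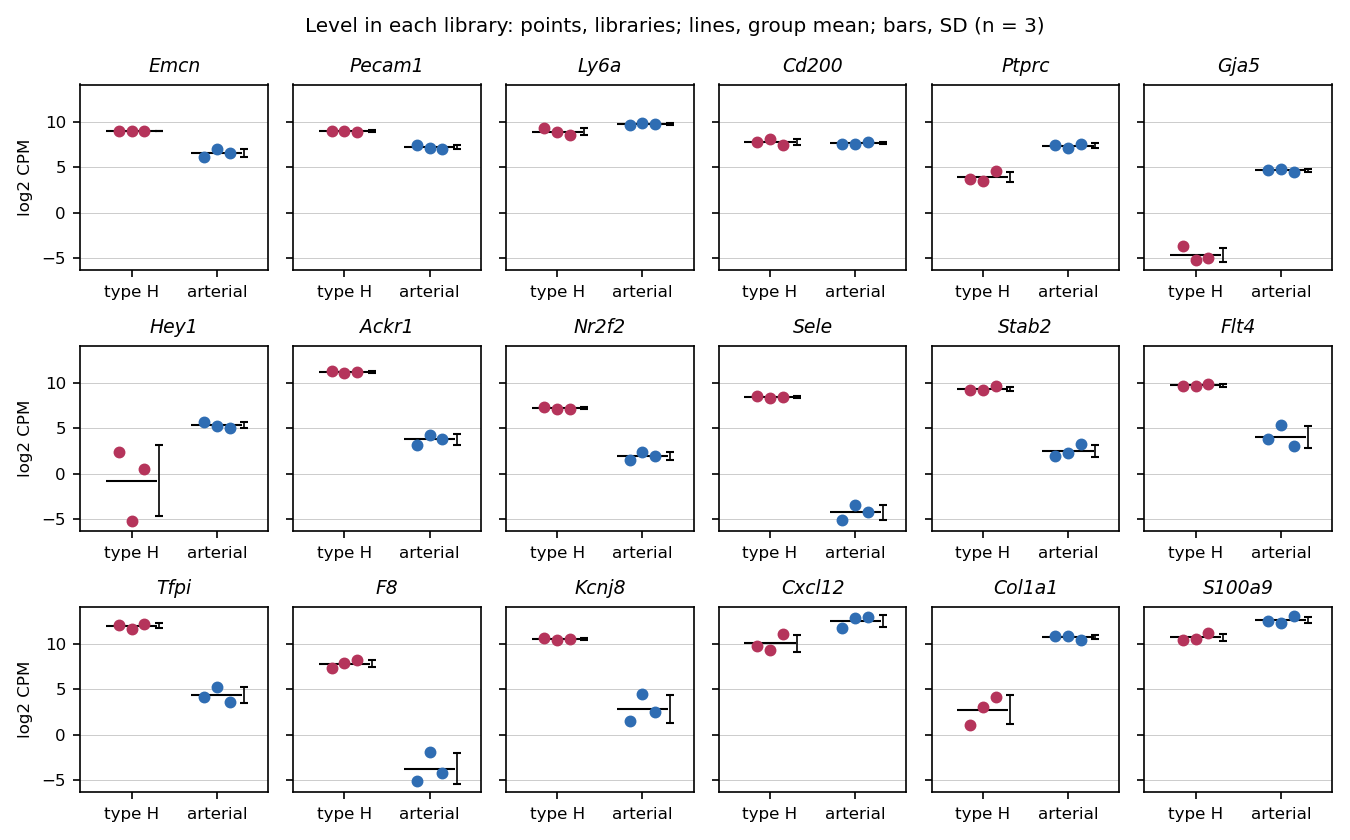
Level of 18 genes in each library, in log2 CPM on the vertical axis, for type H (left) and arterial cells (right). Points are the 3 libraries of a group, horizontal lines the group mean and bars the SD. Emcn, Pecam1, Ackr1, Nr2f2, Sele, Stab2, Flt4, Tfpi, F8 and Kcnj8 lie higher in all 3 type H libraries, while Ptprc, Gja5, Hey1, Cxcl12, Col1a1 and S100a9 lie lower.

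Of the 17086 genes tested, 3536 (20.7%) passed, with 1360 higher in type H cells (7.96%) and 2176 lower (12.7%). The median difference over all genes was -0.20. Among the genes that passed, 563 rose by more than 2 log2 units and 1705 fell by more than 2. For 6831 genes (40.0%) the values of the groups did not overlap. When libraries were scaled to equal medians of 16 pan-endothelial genes, each difference moved by -1.80, and 248 genes were higher and 9914 lower. Counts on that endothelial scale are given with the gene groups below, since the direction of a group can turn with it. The counts of every group are to be read against the 7.96% higher and 12.7% lower of all genes. Those on the endothelial scale are to be read against 248 higher and 9914 lower of 17086. Quantile normalization moved the median difference of all genes by 0.28 and a pseudocount of 10 CPM by 0.16.

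**Figure D2:**
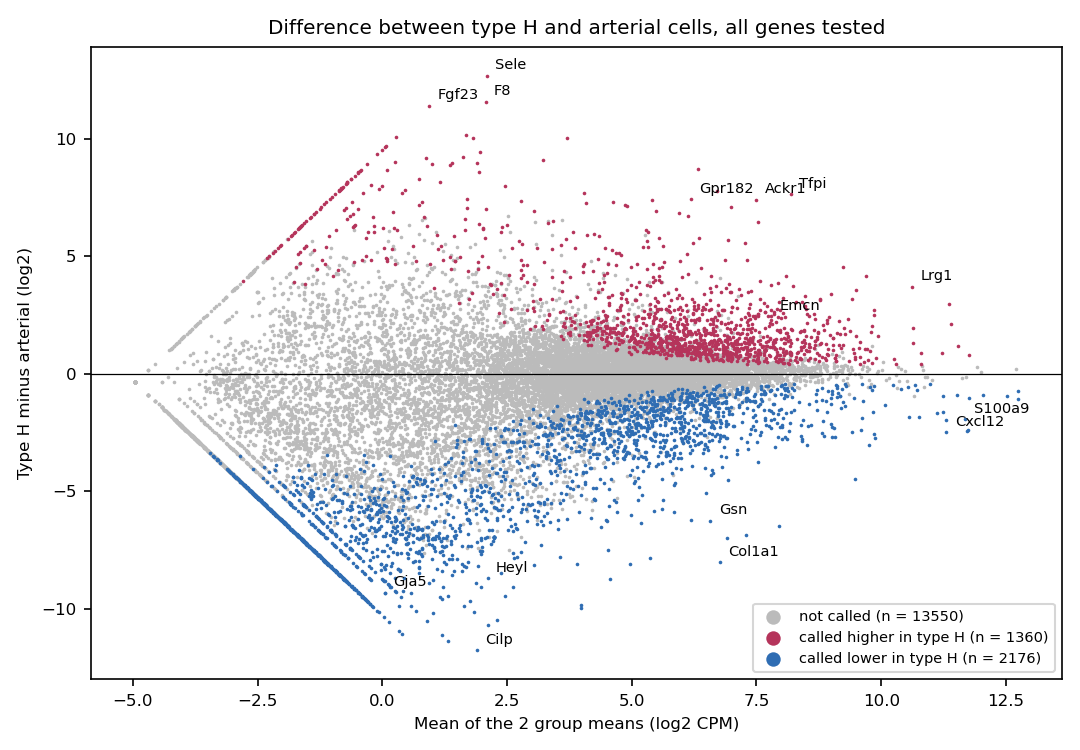
Difference between the groups (vertical axis, type H minus arterial, log2) against the mean of the group means (horizontal axis, log2 CPM), 1 point per gene tested. Genes that passed the limma test are coloured; the straight edges are genes with 0 reads in all libraries of a group. Higher genes number 1360 and lower genes 2176, and Sele, F8 and Fgf23 lie at the top.

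The arterial libraries held more transcript of blood, bone and stromal cells than the type H libraries did. In bulk samples, fewer cells of a type and less RNA per cell cannot be told apart. Neutrophil granule genes took 0.471% to 0.814% of the listed reads of type H and 2.36% to 3.58% of those of arterial libraries, and 14 of 15 fell in type H cells, against the 12.7% of all genes that fell. S100a9, a calcium-binding protein of neutrophils, was at 10.43, 10.55 and 11.19 log2 CPM in type H and at 12.54, 12.33 and 13.05 in arterial libraries. Of 14 B and plasma cell genes tested, 12 fell (median -4.03), with a read share of 0.0190% to 0.0294% in type H and 0.217% to 0.538% in arterial libraries. The surrogate light chain gene Igll1 was at 3.61, 4.11 and 1.52 log2 CPM against 10.16, 9.28 and 8.46.

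Megakaryocyte and platelet genes fell most among the blood lists, with 11 of 12 called and a median of -6.42, or -6.24 with the genes at 0 reads set to their bound. The platelet glycoprotein gene Gp5 had 0 reads in all type H libraries and 94 to 371 in the arterial libraries, and was at least 68.2-fold lower. Of the erythroid genes, 7 of 12 fell, among them the globin genes Hbb-bs (-1.83 ± 0.35, limma adjusted p = 0.0035) and Hba-a1 (-1.63 ± 0.34, limma adjusted p = 0.0058), whose near-identical copies make single values uncertain. Epor, the erythropoietin receptor, went the other way and rose by 2.86 ± 0.48 (limma adjusted p = 0.0015). Macrophage and monocyte genes fell in 6 of 13 cases, with the complement gene C1qa at -0.07, -0.92 and 2.89 log2 CPM against 6.08, 7.56 and 6.73. Without any 1 arterial replicate that count was 3. Of the 13 stem and progenitor genes tested, 7 fell and none rose. For T and NK cells it was 3 of 7, or 1 without arterial replicate 3, and for skeletal muscle 1 of 6. On the endothelial scale none of the genes in these lists rose, and 15 neutrophil, 12 B and plasma cell, 12 megakaryocyte, 9 erythroid, 10 macrophage, 12 stem cell, 4 T and NK cell and 5 muscle genes fell.

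Most bone and connective tissue genes fell. Of 14 osteoblast and bone genes tested, 13 fell, with a median of -6.27, and all 14 fell on the endothelial scale. Col1a1, a chain of the main bone collagen, was at 1.06, 3.03 and 4.20 log2 CPM in type H and at 10.94, 10.92 and 10.46 in arterial libraries. It fell by 8.01 ± 0.61 (limma adjusted p = 1.2e-05), and the osteocalcin gene Bglap fell by 6.84 ± 0.67 (limma adjusted p = 5.8e-05), with reads that its copy Bglap2 may share. Osteoblast and bone genes took 0.414% to 0.540% of type H and 1.66% to 1.94% of arterial reads. Of the 12 fibroblast and periosteal genes, 11 fell (median -5.87), and 12 on the endothelial scale. The proteoglycan gene Lum was at -5.28, -1.08 and 3.36 log2 CPM in type H and at 9.03, 8.81 and 9.04 in arterial libraries. These groups did not overlap, although type H replicate 3 lay far above the other two.

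Mural cell markers split. Acta2, the smooth muscle actin, fell by 6.59 ± 1.51 (limma adjusted p = 0.0094, but 0.056 when the 6 libraries were fitted with replicate number as a block). Cspg4 and Pdgfrb of pericytes fell by 9.05 ± 2.01 and 2.80 ± 0.73 (limma adjusted p = 0.0081 and 0.018, the latter 0.054 to 0.067 without type H replicate 1 or 2 or arterial replicate 2 or 3). Of 13 genes tested 5 fell and 2 rose, and on the endothelial scale 9 fell and the same number rose. Without type H replicate 2 or arterial replicate 2 or 3 the falls numbered 2, and without arterial replicate 1, CD200-high replicate 3 or sinusoid-labelled replicate 1 they numbered 3. All the same, mural genes took 0.270% to 0.314% of type H and 0.0386% to 0.0522% of arterial reads. Such a share follows the most abundant genes, and 9 of the 13 differences were negative (median -1.59). The genes that rose, Kcnj8 and Abcc9, encode the subunits of a potassium channel. Kcnj8 was at 10.70, 10.48 and 10.60 log2 CPM in type H and at 1.5, 4.50 and 2.48 in arterial libraries, a rise of 7.77 ± 0.58 (limma adjusted p = 1e-05). Abcc9 rose by 5.58 ± 0.48 (limma adjusted p = 2.8e-05). Lymphatic markers split as well: Flt4 and Mmrn1 rose while Pdpn and Reln fell among 7 tested (for Reln limma adjusted p = 0.021, but 0.069 with only the 6 libraries and 0.054 to 0.079 without type H replicate 1 or arterial replicate 2 or 3; 1 rose and 4 fell on the endothelial scale), and Prox1, the defining transcription factor of lymphatic endothelium, was at -5.28, -2.85 and 3.11 against 0.91, 2.93 and 2.51 log2 CPM. Prox1 did not pass (limma adjusted p = 0.22), but did without type H replicate 3 (-6.18, limma adjusted p = 0.032).

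**Figure D3:**
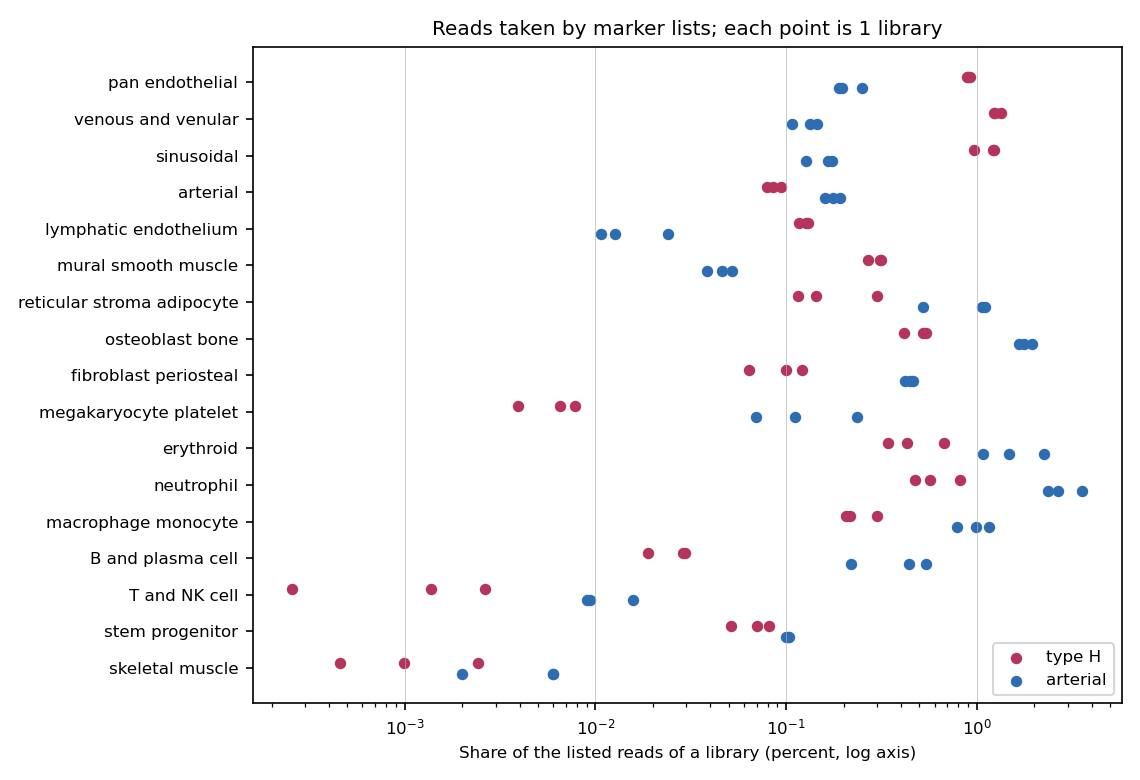
Share of the listed reads of each library (horizontal log axis, percent) taken by the vessel marker lists and by marker lists of other cells. Each point is 1 library, 3 per group. Type H libraries lie to the right for the pan-endothelial, venous, sinusoidal, lymphatic and mural lists, and arterial libraries for the arterial, stromal, bone and blood lists. Shares follow the most abundant genes, such as Flt4 (lymphatic) and Kcnj8 (mural). In these lists 5 of 7 and 9 of 13 differences were negative.

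Transcripts that mark endothelium in general were higher in type H cells. Of 16 pan-endothelial genes 11 rose and 1 fell, with a median of 2.29, and 3 rose and 2 fell on the endothelial scale. That scale was set by the medians of these same genes, so their counts on it are not an independent check. The pan-endothelial genes took 0.888% to 0.917% of type H reads and 0.189% to 0.250% of arterial reads. Eng, the TGF-beta co-receptor endoglin, was at 9.76, 9.71 and 9.9997 log2 CPM against 6.80, 6.94 and 6.60, a rise of 3.05 ± 0.19 (limma adjusted p = 3.7e-06). The tight junction gene Cldn5 rose by 3.14 ± 0.50 (limma adjusted p = 0.0011), while Cdh5, the endothelial cadherin, differed by 1.09 ± 0.44 and did not pass (limma adjusted p = 0.10, but 0.0052 with only the 6 libraries and 0.029 without sinusoid-labelled replicate 2). Vwf, the gene of von Willebrand factor, fell. It was at 1.96, -5.17 and -2.63 log2 CPM in type H and at 5.39, 4.97 and 4.37 in arterial libraries, a difference of -6.86 ± 2.06 (limma adjusted p = 0.035). That call was lost when type H replicate 2 or 3 or any arterial replicate was left out (limma adjusted p 0.074 to 0.11, with falls of -5.25 to -7.13).

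Some arterial markers were lower in type H cells and none was higher. Of 19 tested, 8 fell and none rose (median -2.21), and 14 fell on the endothelial scale. Without arterial replicate 1, 2 or 3 the falls numbered 5, 4 and 5. Mgp, Fbln5, Fbln2, Eln and Ltbp4 of this list are also on the list of elastic and interstitial matrix. The fibroblast list, with 11 of 12 lower, moved with the falls, and the part of stromal RNA in them was not tested. Gja5, a connexin of arterial endothelium, had 1 read in the type H libraries together and 1122 in the arterial libraries, a ratio of 1405 (95% exact interval 252 to 55530, counting error only). It passed with a limma adjusted p of 9.2e-05. Mgp, which inhibits calcification of the vessel wall, was at 6.57, 5.79 and 6.59 log2 CPM against 8.78, 8.42 and 8.37 and fell by 2.21 ± 0.36 (limma adjusted p = 0.0012). The elastic fibre gene Fbln5 fell by 1.53 ± 0.42 (limma adjusted p = 0.022, but 0.066 to 0.091 without type H replicate 2 or arterial replicate 2 or 3). The arterial transcription factor gene Sox17 was at 3.96, 5.38 and 4.49 against 3.96, 3.74 and 4.31 log2 CPM, and the groups overlapped. Gja4, another arterial connexin, was at 4.67, 4.49 and -4.95 log2 CPM in type H and at 5.05, 5.92 and 5.58 in arterial libraries. It did not pass (-4.11 ± 2.36, limma adjusted p = 0.25), and without type H replicate 3 the difference was -0.94 (limma adjusted p = 0.76). The ligand genes Dll4 (1.53 ± 1.06, limma adjusted p = 0.34, but 0.0096 with only the 6 libraries) and Efnb2 (-0.81 ± 0.84, limma adjusted p = 0.55) did not pass either.

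Sinusoidal genes formed the list with the highest median, 3.66, with 11 of 15 higher, none lower, and 9 higher and 2 lower on the endothelial scale. Stab2, a scavenger receptor of sinusoids that binds hyaluronan, was at 9.20, 9.27 and 9.63 log2 CPM in type H and at 2.01, 2.25 and 3.33 in arterial libraries. Every type H value lay above every arterial value, and Stab2 rose by 6.84 ± 0.66 (limma adjusted p = 5.4e-05). Gpr182, a chemokine-binding receptor, was at 10.24, 9.54 and 9.92 against 2.45, 2.66 and 2.34 and rose by 7.42 ± 0.66 (limma adjusted p = 3.7e-05). The VEGF-C receptor gene Flt4 was at 9.70, 9.62 and 9.94 against 3.80, 5.39 and 3.06 and rose by 5.67 ± 0.51 (limma adjusted p = 3.7e-05). Il6st, the gp130 receptor shared by IL-6 type cytokines, rose by 4.14 ± 0.30 (limma adjusted p = 8.4e-06). Lyve1 and Cd36 did not pass, at -0.74 ± 2.23 and -0.04 ± 0.36 (limma adjusted p = 0.86 and 0.95). These cells were labelled type H, and sinusoidal and venular markers were higher in them than in the arterial cells. Genes tied to type H vessels in earlier work gave 4 higher and 2 lower of 15 (none higher and 7 lower on the endothelial scale). The sorting antigens Emcn and Pecam1 are on that list and among its rises, so its count is not independent of the sort. Hif1a, the hypoxia factor, rose by 1.16 ± 0.25 (limma adjusted p = 0.0063), whereas the axon guidance ligand Slit3 fell by 5.93 ± 1.23 (limma adjusted p = 0.0055), a call lost with a pseudocount of 10 CPM (-0.37, limma adjusted p = 0.43). It had 2 reads in the type H libraries together and 122 in the arterial, a ratio of 76.4 (95% exact interval 20.7 to 638, counting error only).

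Venous and venular genes were higher in type H cells in 9 of 14 cases and lower in 1, with a median of 3.16, and 8 were higher and 3 lower on the endothelial scale. Ackr1, a chemokine-binding receptor that marks venules, was at 11.30, 11.11 and 11.20 log2 CPM in type H and at 3.19, 4.34 and 3.84 in arterial libraries. It rose by 7.41 ± 0.61, or 170-fold (limma adjusted p = 2.4e-05). Nr2f2, the transcription factor that sets venous fate, was at 7.40, 7.14 and 7.17 against 1.5, 2.46 and 1.96 and rose by 5.27 ± 0.70 (limma adjusted p = 0.00036). Lrg1, a secreted glycoprotein of venular endothelium, was at 12.42, 12.36 and 12.64 against 8.58, 8.68 and 9.03 and rose by 3.71 ± 0.29 (limma adjusted p = 1.2e-05). Plvap, which forms the diaphragms of fenestrae, rose by 5.78 ± 0.70 (limma adjusted p = 0.0002), and the apelin receptor gene Aplnr by 3.17 ± 0.23 (limma adjusted p = 7.7e-06). Capillary markers split evenly, with 6 of 16 higher and 6 lower. The fatty acid binding protein gene Fabp4 was at 12.64, 12.30 and 12.42 against 10.29, 10.41 and 10.33 log2 CPM and rose by 2.11 ± 0.24 (limma adjusted p = 0.00015). The carbonic anhydrase gene Car4 was at -5.28, 1.24 and -4.95 against 5.69, 5.16 and 5.28 and fell by 8.37 ± 1.72 (limma adjusted p = 0.0052). On the endothelial scale no capillary marker was higher and 9 were lower.

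**Figure D4:**
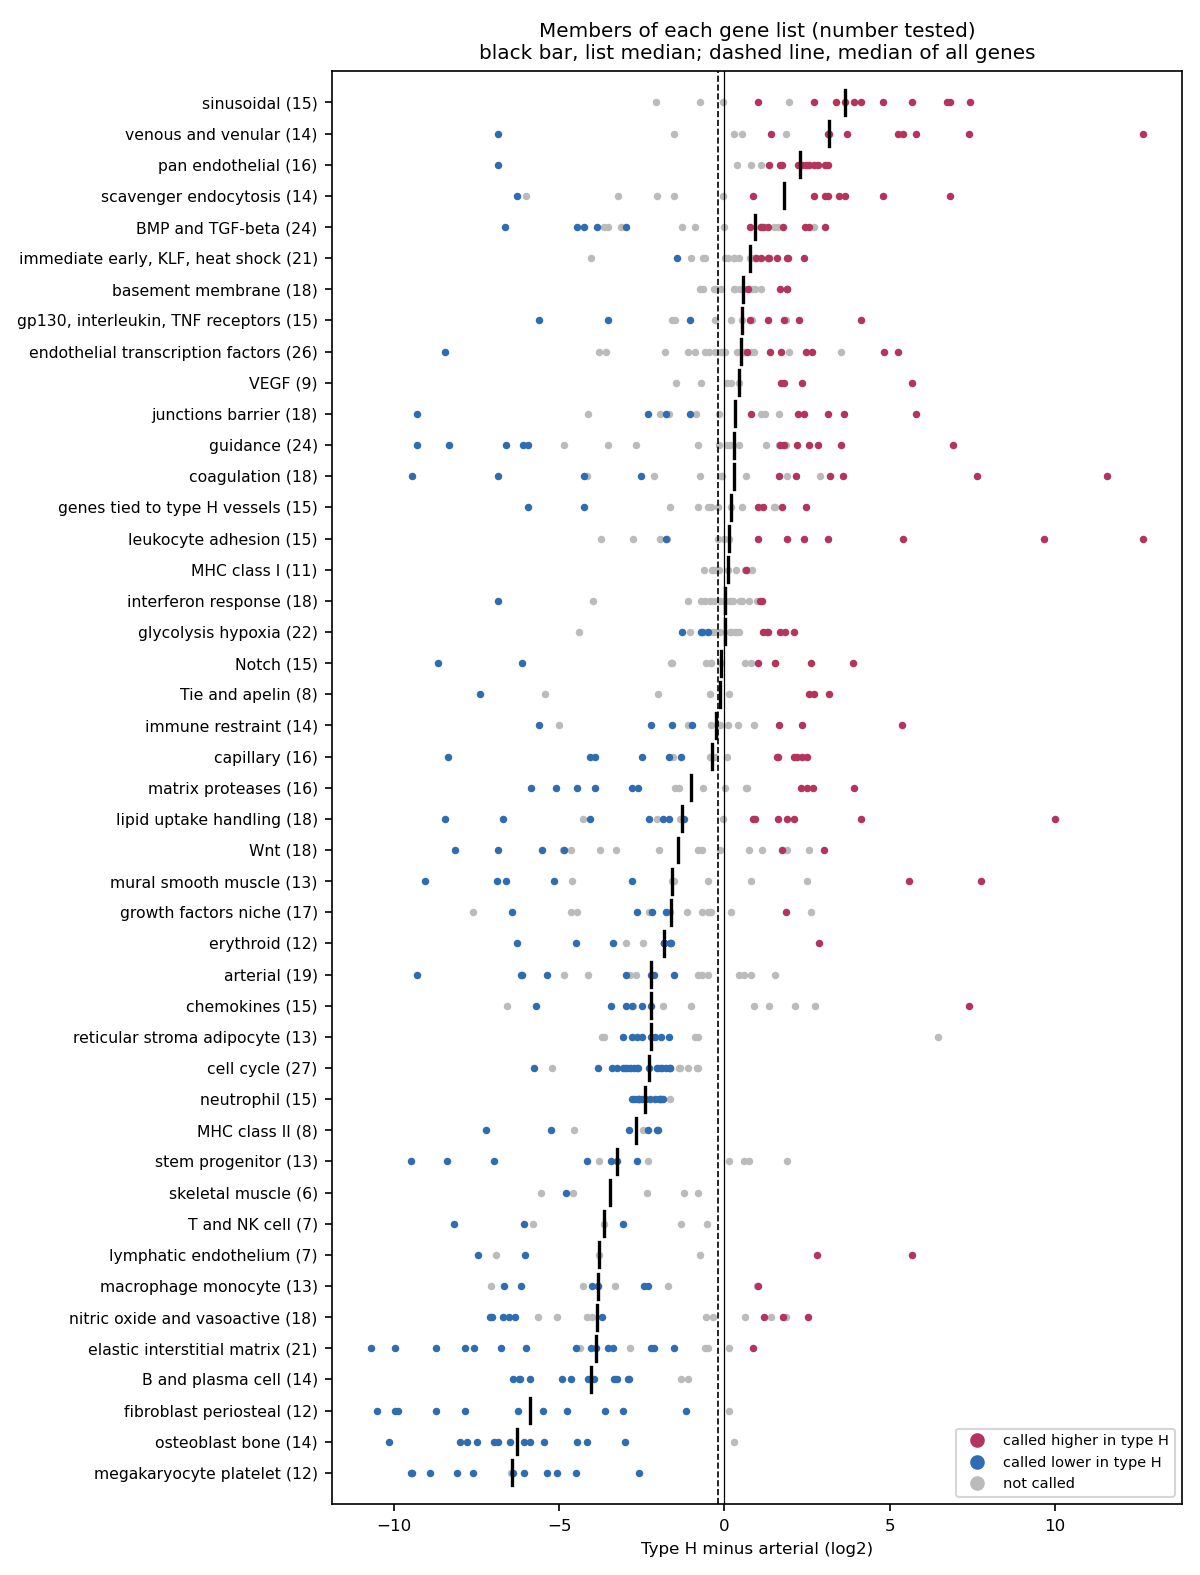
Difference of each member of the 45 gene lists (horizontal axis, type H minus arterial, log2), with the number tested in brackets. Points are genes, coloured where they passed the limma test, black bars are list medians and the dashed line is the median of all genes (-0.20). Sinusoidal, venous and pan-endothelial medians are the highest, at 3.66, 3.16 and 2.29, and would lie 1.80 lower on the endothelial scale.

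Genes through which endothelium captures leukocytes were among the rises in type H cells. Of 15 adhesion genes tested 7 rose and 1 fell, against 7.96% and 12.7% of all genes, and 4 rose and 7 fell on the endothelial scale. The list did not rise as a whole: its median difference was 0.15, with 8 differences positive and 7 negative. The gene that fell was Jam2. Sele, the gene of E-selectin, had the largest difference of all genes under the naming rule. It was at 8.57, 8.32 and 8.41 log2 CPM in type H and had 1 read in the arterial libraries together, against 18413 in the type H libraries. The ratio was 14710 (95% exact interval 2639 to 580900, counting error only; limma adjusted p = 0.00022). Selp, the gene of P-selectin, was at 8.49, 8.24 and 8.29 log2 CPM against 3.92, 1.68 and 3.17 and rose by 5.42 ± 1.0 (limma adjusted p = 0.0027). Madcam1, the addressin that binds an integrin of lymphocytes, had 363 to 767 reads in type H and 0 in all arterial libraries, at least 117-fold higher. Icam1, a ligand of leukocyte integrins, was at 8.68, 8.56 and 8.74 against 5.16, 6.04 and 5.35 and rose by 3.14 ± 0.31 (limma adjusted p = 5.9e-05). Its relative Icam2 rose by 1.89 ± 0.14 (limma adjusted p = 8.4e-06) and F11r, a junctional adhesion molecule, by 2.41 ± 0.22 (limma adjusted p = 4e-05). Vcam1, which binds lymphocyte integrins, was at 9.82, 9.26 and 9.60 against 7.99, 8.94 and 8.65 and rose by 1.03 ± 0.30 (limma adjusted p = 0.032), but its limma adjusted p was 0.064 to 0.13 without type H replicate 1 or 3 or arterial replicate 1 or 3, and its difference was -0.77 on the endothelial scale.

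The promoters of Sele, Selp, Icam1 and Madcam1 are shown because these 4 adhesion genes rose together and carry related short motifs. Each line gives 250 bases before the RefSeq transcription start, from the GRCm38.p6 table, read 5′ to 3′ on the plus strand. Capitals mark each match to GGAANNNCC, a pattern common to many binding sites of the inflammatory factor NF-kappaB, searched on both strands. The windows are chr1:164047984-164048233 (Sele), chr1:164115014-164115263 (Selp), chr9:21015690-21015939 (Icam1) and chr10:79664309-79664558 (Madcam1).
Sele: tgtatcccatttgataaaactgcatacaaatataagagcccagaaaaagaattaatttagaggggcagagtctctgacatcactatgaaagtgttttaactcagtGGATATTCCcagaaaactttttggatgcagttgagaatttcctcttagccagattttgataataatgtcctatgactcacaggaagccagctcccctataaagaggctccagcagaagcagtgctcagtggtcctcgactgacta
Selp: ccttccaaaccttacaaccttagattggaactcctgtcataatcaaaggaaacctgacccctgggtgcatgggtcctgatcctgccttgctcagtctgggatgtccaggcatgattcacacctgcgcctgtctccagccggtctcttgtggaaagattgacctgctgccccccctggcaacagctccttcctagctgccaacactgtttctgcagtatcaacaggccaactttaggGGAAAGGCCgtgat
Icam1: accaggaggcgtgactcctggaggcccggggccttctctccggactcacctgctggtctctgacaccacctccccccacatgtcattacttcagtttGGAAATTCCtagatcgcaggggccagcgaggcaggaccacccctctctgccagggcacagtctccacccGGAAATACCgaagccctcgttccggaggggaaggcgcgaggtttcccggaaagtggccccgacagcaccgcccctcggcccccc
Madcam1: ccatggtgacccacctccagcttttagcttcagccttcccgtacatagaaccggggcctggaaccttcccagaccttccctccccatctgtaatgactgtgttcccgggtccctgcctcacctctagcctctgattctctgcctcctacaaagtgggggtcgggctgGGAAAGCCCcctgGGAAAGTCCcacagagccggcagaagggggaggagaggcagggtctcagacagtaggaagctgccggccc
The match in Sele began 145 bases before the start, on the minus strand. The match in Selp began 14 bases before it. In Icam1 the matches began 153 bases (read on both strands, an overlap) and 84 bases before the start, and in Madcam1 83 and 70 bases. A match was held by 15.7% of all 32851 promoter windows of this length. Of the 10 adhesion genes with a window, 4 of the 5 that rose held a match, and so did Itgb1, an integrin gene named here after its values were seen, among the 5 that did not rise. The spelling was chosen after several had been looked at in these windows, so the counts describe the sequences and test nothing.

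Among the 30 genes with the largest changes, the rises included further endothelial and secreted products. F8, the gene of coagulation factor VIII, was at 7.40, 7.92 and 8.25 log2 CPM in type H and at -5.07, -1.84 and -4.23 in arterial libraries, where it had 0 to 4 reads. It rose by 11.57 ± 1.11 (limma adjusted p = 5.4e-05). Fgf23, the hormone that lowers blood phosphate, had 1364 to 2426 reads in type H and 0 in all arterial libraries, at least 387-fold higher. Lipg, the endothelial lipase, was at 6.90, 6.78 and 6.82 against -1.90, -5.01 and -2.65 log2 CPM and rose by 10.02 ± 1.27 (limma adjusted p = 0.00026). Adgrg6, an adhesion receptor, rose by 9.07 ± 1.62 (limma adjusted p = 0.0023), and Adh6b, an alcohol dehydrogenase gene, by 10.17 ± 2.03 (limma adjusted p = 0.0043). With 0 reads in all arterial libraries, Sectm1a was at least 155-fold, Zmynd15 at least 105-fold and Lrrc55 at least 70.0-fold higher. Btg3, Crygn, Cdkl1, Mum1l1 and Susd4 completed the 15 rises, with limma adjusted p of 0.0004 to 0.0053. The order of these genes depends on the 0.5 read added to each count, since most had 0 reads in 1 or more arterial libraries.

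The 15 largest falls included genes of cartilage matrix, microfibrils and stromal cells. Cilp, a cartilage matrix protein, was at -5.28, -5.17 and -1.49 log2 CPM in type H and at 7.11, 8.23 and 7.99 in arterial libraries, a fall of 11.76 ± 2.71 (limma adjusted p = 0.0098). Smoc2, a matricellular protein, had 2 reads in the type H libraries together and 4685 in the arterial, a ratio of 2933 (95% exact interval 811 to 24220, counting error only). With 0 reads in all type H libraries, Fndc1 was at least 308-fold, Myoc at least 279-fold, Gpr18 at least 215-fold, Rasgrf2 at least 186-fold, Postn at least 160-fold and Penk at least 154-fold lower. Mfap5, a microfibril protein, fell by 10.69 ± 2.09 (limma adjusted p = 0.0039) and Cd248, a stromal surface protein, by 10.47 ± 1.84 (limma adjusted p = 0.002). Dpt, Gfra1, Igfbp6 and Aspn fell with limma adjusted p of 0.00083 to 0.0076. Prss34, a protease of basophils and mast cells, was at -2.96, -5.17 and -4.95 against 4.70, 7.72 and 8.55 log2 CPM. It fell by 11.35 ± 3.12 (limma adjusted p = 0.023), a call lost when type H replicate 2 or 3 or arterial replicate 2 or 3 was left out (limma adjusted p 0.059 to 0.079). The call of Prss34 was also lost with voom (limma adjusted p = 0.2). The fibroblast and osteoblast lists moved with these falls, at medians of -5.87 and -6.27, and their part in them was not tested.

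**Figure D5:**
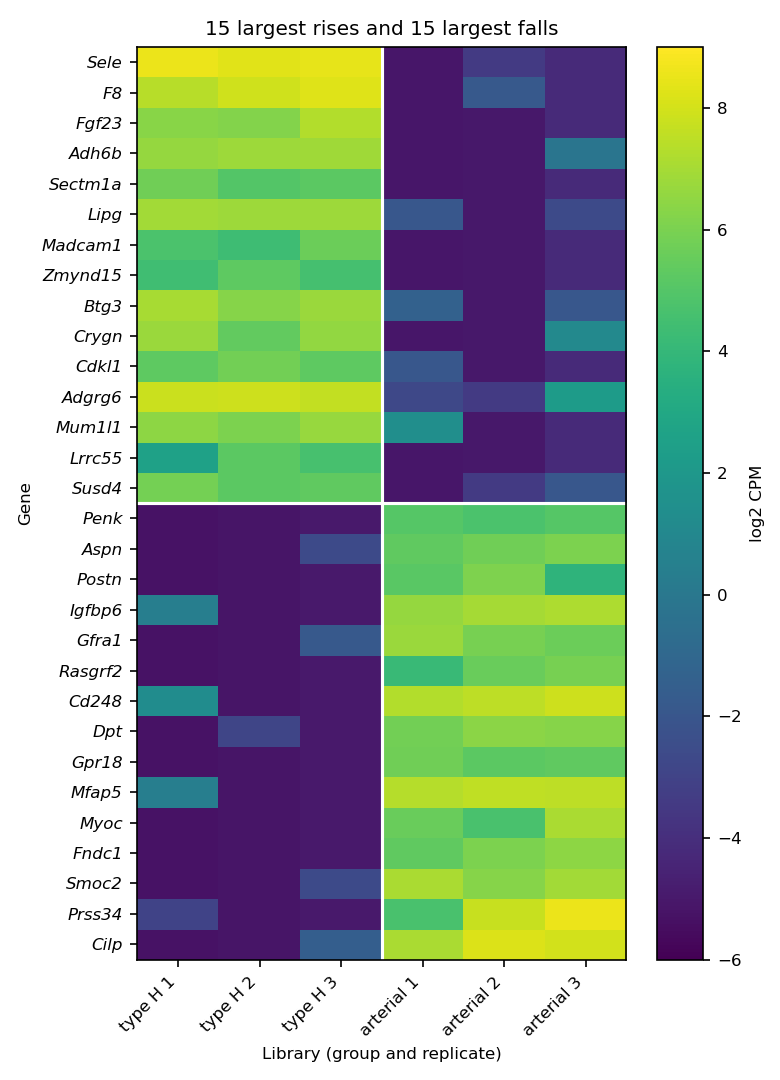
Level in log2 CPM (colour) of the 15 genes with the largest rises and the 15 with the largest falls under the naming rule, in the 6 libraries. Rows are genes in order of their difference and columns are libraries. Values near -5 are genes with 0 reads. The naming rule took only genes whose groups did not overlap, so the separation of the groups follows from the selection.

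Uptake and clearance genes were higher in type H cells, with 8 of 14 higher and 1 lower (median 1.80, and 6 higher and 6 lower on the endothelial scale). Stab1, Stab2, Mrc1, Fcgr2b and Cd36 are also on the sinusoidal list, so the counts of these lists are not independent. Stab1, the second stabilin, was at 8.36, 8.22 and 8.51 log2 CPM against 4.37, 2.99 and 3.34 and rose by 4.79 ± 0.52 (limma adjusted p = 0.0001). The mannose receptor gene Mrc1 rose by 3.66 ± 0.59 (limma adjusted p = 0.0012) and the inhibitory immunoglobulin receptor gene Fcgr2b by 2.73 ± 0.39 (limma adjusted p = 0.00061). Fcgrt, which recycles immunoglobulin G and albumin, was at 10.12, 9.72 and 9.94 against 6.18, 7.52 and 6.94 and rose by 3.04 ± 0.31 (limma adjusted p = 7.7e-05). Scarf1, a receptor for modified lipoproteins and dying cells, rose by 3.12 ± 0.42 (limma adjusted p = 0.00038). Of the macrophage markers 6 of 13 fell and 1, Vcam1, rose (3 fell without any 1 arterial replicate), and the part of macrophage RNA was not tested.

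Coagulation genes moved in both directions, with 6 of 18 higher and 4 lower (4 and 7 on the endothelial scale). Inhibitors of clotting were among the rises, and so was the clotting factor gene F8, with the largest rise of the list. Differences in the list ran from -9.45 to 11.57. Tfpi, which blocks the tissue factor pathway, was at 12.14, 11.70 and 12.19 log2 CPM in type H and at 4.20, 5.30 and 3.62 in arterial libraries. It rose by 7.64 ± 0.42, or 199-fold (limma adjusted p = 2.7e-06). Thbd, the thrombin-binding protein thrombomodulin, was at 11.44, 10.99 and 11.42 against 7.39, 7.89 and 7.81 and rose by 3.59 ± 0.20 (limma adjusted p = 2.7e-06). The thrombin receptor gene F2r rose by 3.18 ± 0.29 (limma adjusted p = 3.9e-05) and Entpd1, which breaks down extracellular ATP and ADP, by 1.65 ± 0.26 (limma adjusted p = 0.00094). Thbs1, a matrix protein also stored in platelets, was at 3.11, 4.33 and 3.64 against 8.07, 8.14 and 7.58 and fell by 4.23 ± 0.38 (limma adjusted p = 3.7e-05). Vwf fell as given above, and the platelet list, with 11 of 12 lower, moved with Thbs1 and Vwf. The part of platelet RNA in them was not tested.

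Junction genes were 6 higher and 4 lower of 18 (3 and 9 on the endothelial scale). Esam, an endothelial adhesion molecule, was at 10.35, 10.15 and 10.29 log2 CPM against 7.95, 8.28 and 7.87 and rose by 2.23 ± 0.23 (limma adjusted p = 8.8e-05). Cav1, the main coat protein of caveolae, was at 8.0, 8.01 and 7.68 against 9.97, 10.39 and 10.27 and fell by 2.31 ± 0.29 (limma adjusted p = 0.00026). Tjp1, a scaffold of tight junctions, differed by 1.22 ± 0.67 and did not pass (limma adjusted p = 0.23, but 0.022 with only the 6 libraries and 0.020 without sinusoid-labelled replicate 1). Lipid handling genes were 7 higher and 7 lower of 18 (2 and 13 on the endothelial scale). Gpihbp1, which carries lipoprotein lipase across capillaries, rose by 1.62 ± 0.31 (limma adjusted p = 0.0037), whereas Lpl, the lipase itself, fell by 1.67 ± 0.34 (limma adjusted p = 0.005). Meox2, a transcription factor of fatty-acid-transporting endothelium, was at -5.28, -5.17 and 0.00 against 4.43, 5.88 and 4.59 log2 CPM and fell by 8.45 ± 1.39 (limma adjusted p = 0.0014). Aqp7, a glycerol channel of capillaries and fat cells, fell by 4.07 ± 0.77 (limma adjusted p = 0.0032).

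VEGF receptors were higher in type H cells, and no VEGF ligand passed the test. Of 9 VEGF genes 4 rose and none fell (1 and 4 on the endothelial scale). Kdr, the main VEGF receptor, was at 10.50, 10.34 and 10.65 log2 CPM against 7.86, 8.55 and 8.06 and rose by 2.34 ± 0.36 (limma adjusted p = 0.00086). Flt1, the decoy VEGF receptor, rose by 1.71 ± 0.25 (limma adjusted p = 0.00072), and Nrp2, a co-receptor, by 1.82 ± 0.42 (limma adjusted p = 0.0096). The ligand Vegfa was at 5.16, 4.50 and 5.08 against 3.78, 4.97 and 5.42 and did not pass (0.19 ± 0.49, limma adjusted p = 0.83), nor did Vegfc (-1.46 ± 0.68, limma adjusted p = 0.16, but 0.034 with voom). Of 8 Tie and apelin genes 3 rose and 1 fell (2 and 2 on the endothelial scale). The angiopoietin receptor genes Tek and Tie1 rose by 2.56 ± 0.43 and 2.70 ± 0.30 (limma adjusted p = 0.0014 and 0.00012). Angpt4, a ligand of Tek, was at -5.28, -5.17 and 2.48 against 4.55, 3.99 and 5.66 log2 CPM and fell by 7.39 ± 2.24 (limma adjusted p = 0.037), a call lost when type H replicate 1 or 2 or any arterial replicate was left out (limma adjusted p 0.072 to 0.12) and with only the 6 libraries (limma adjusted p = 0.051).

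Notch genes moved in both directions. Of 15 tested 4 rose and 2 fell (none and 6 on the endothelial scale), and the rises numbered 2 without type H replicate 1 or 3 or arterial replicate 1 or 3. Dll1, a ligand, was at 5.71, 5.56 and 5.40 log2 CPM in type H and at 0.48, 2.09 and 2.43 in arterial libraries and rose by 3.89 ± 0.98 (limma adjusted p = 0.016, but 0.063 without arterial replicate 1). Mfng, a glycosyltransferase that modifies Notch receptors, rose by 2.63 ± 0.48 (limma adjusted p = 0.0027). Jag1 and Jag2, ligands, did not pass, at 0.81 ± 0.71 and -0.41 ± 0.57 (limma adjusted p = 0.47 and 0.67). The target genes differed among themselves. Hes1 rose by 1.53 ± 0.40 (limma adjusted p = 0.018, but 0.058 to 0.067 without type H replicate 1 or 3 or arterial replicate 3). Hey1 was at 2.37, -5.17 and 0.54 against 5.69, 5.30 and 5.08 and fell by 6.11 ± 1.42 (limma adjusted p = 0.01, but 0.055 with only the 6 libraries). Heyl was at -2.96, -5.17 and 1.46 against 7.19, 6.36 and 5.80 and fell by 8.67 ± 1.30 (limma adjusted p = 0.00076).

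BMP and TGF-beta genes were 8 higher and 5 lower of 24 (1 and 12 on the endothelial scale). The rises were receptors, signal carriers and targets: Tgfbr2 rose by 1.78 ± 0.28 (limma adjusted p = 0.00093), Smad5 by 2.56 ± 0.32 (limma adjusted p = 0.00026) and Id3, a target of BMP signals, by 1.12 ± 0.11 (limma adjusted p = 4.9e-05). The ligands went the other way or did not pass. Bmp6 was at -0.24, 2.52 and 3.01 log2 CPM against 5.32, 6.28 and 6.41 and fell by 4.24 ± 1.07 (limma adjusted p = 0.016, but 0.053 to 0.058 without type H replicate 1 or arterial replicate 2 or 3), and the activin gene Inhba fell by 4.47 ± 0.86 (limma adjusted p = 0.0036). Bmp4 and Tgfb1 did not pass (limma adjusted p = 0.34 and 0.17). The count of falls was 3 or 2 without type H replicate 1 or 2, 3, 2 or 1 without arterial replicate 1, 2 or 3, and 3 without sinusoid-labelled replicate 1.

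Wnt genes were 2 higher and 4 lower of 18 (none and 7 on the endothelial scale). Fzd4, a Wnt and norrin receptor of vessels, was at 8.56, 9.45 and 9.44 log2 CPM against 5.73, 6.62 and 6.03 and rose by 3.02 ± 0.49 (limma adjusted p = 0.0012), and its partner Tspan12 rose by 1.73 ± 0.42 (limma adjusted p = 0.012, but 0.051 without type H replicate 1). The ligand Wnt5a had 0 reads in all type H libraries and 72 to 203 in the arterial libraries, at least 40.4-fold lower. Lef1, a transcription factor of the pathway also found in early B cells, fell by 4.86 ± 1.02 (limma adjusted p = 0.0057). The inhibitor Sfrp1 fell by 6.86 ± 1.44 (limma adjusted p = 0.0058). The stromal and B cell lists moved with these falls, and their part was not tested.

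Guidance genes were 7 higher and 5 lower of 24 (1 and 11 on the endothelial scale), and related ligands moved in opposite directions. Sema3a, a repellent of axons and vessels, was at 9.03, 8.87 and 8.95 log2 CPM in type H and at 3.38, 4.59 and -1.91 in arterial libraries and rose by 6.93 ± 1.24 (limma adjusted p = 0.0023). Sema3c had 0 reads in all type H libraries and 183 to 284 in the arterial libraries, at least 90.1-fold lower. Sema6a rose by 2.56 ± 0.37 (limma adjusted p = 0.00064) and Sema3f by 3.54 ± 0.81 (limma adjusted p = 0.0095). Slit2 had 0 reads in all type H libraries and 71 to 240 in the arterial, at least 45.7-fold lower. The endothelial receptor Robo4 was at 8.53, 8.41 and 8.34 against 5.27, 6.19 and 5.31 and rose by 2.84 ± 0.34 (limma adjusted p = 0.0002). Efna1, an ephrin ligand, rose by 2.21 ± 0.29 (limma adjusted p = 0.00033).

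Among cytokine receptors 5 of 15 were higher and 3 lower (1 and 8 on the endothelial scale). Without type H replicate 1 or arterial replicate 1 or 2 the rises numbered 3, and without arterial replicate 3 the falls numbered 1. Il6st was at 11.86, 11.48 and 11.95 log2 CPM against 6.98, 7.90 and 7.99, while Il6ra, the IL-6 receptor it pairs with, was at -0.43, -5.17 and -2.63 against 2.70, 2.17 and 3.73 and fell by 5.61 ± 1.43 (limma adjusted p = 0.016, but 0.062 without arterial replicate 3). Lifr, another partner, was at 8.32, 8.31 and 8.60 against 7.65, 8.59 and 8.37 and did not pass (0.20 ± 0.27, limma adjusted p = 0.65). Tnfrsf1a, the main TNF receptor, rose by 1.80 ± 0.25 (limma adjusted p = 0.00046), and Il17ra fell by 3.52 ± 0.43 (limma adjusted p = 0.00022).

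Of 15 chemokine genes 6 fell and 1, Ackr1, rose, and of 17 growth factor genes 4 fell and 1 rose, against 12.7% lower and 7.96% higher of all genes. On the endothelial scale 8 and 13 fell, and 1 chemokine gene and no growth factor gene rose. Cxcl12, which holds stem cells and B cell precursors in marrow, was at 9.80, 9.30 and 11.09 log2 CPM in type H and at 11.78, 12.86 and 12.99 in arterial libraries. The groups did not overlap, and Cxcl12 fell by 2.48 ± 0.45, or 5.56-fold (limma adjusted p = 0.0025). Kitl, the stem cell factor, was at 5.05, 4.88 and 6.13 against 7.49, 7.98 and 8.49 and fell by 2.64 ± 0.45 (limma adjusted p = 0.0017). Csf1, a macrophage growth factor, fell by 1.77 ± 0.47 (limma adjusted p = 0.02, but 0.053 to 0.087 without type H replicate 2 or arterial replicate 2 or 3) and Igf1 by 2.20 ± 0.50 (limma adjusted p = 0.0093). The decoy chemokine receptor gene Ackr3 fell by 2.79 ± 0.66 (limma adjusted p = 0.011). Tnfsf10, the death ligand TRAIL, rose by 1.87 ± 0.25 (limma adjusted p = 0.00037). Reticular stroma and fat cell markers moved with Cxcl12 and Kitl, which are themselves on that list: 8 of 13 fell (median -2.23; 11 on the endothelial scale; 5 without type H replicate 1 or 2 or arterial replicate 2 or 3), with Lepr at 6.78, 6.61 and 7.27 against 8.06, 9.07 and 9.31 (limma adjusted p = 0.029, but 0.075 to 0.11 without type H replicate 1 or 2 or arterial replicate 2 or 3) and Adipoq at 6.41, 6.01 and 7.49 against 8.28, 9.19 and 9.13 log2 CPM. That list took 0.115% to 0.298% of type H and 0.520% to 1.10% of arterial reads, and its part in the falls was not tested.

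Of 26 endothelial transcription factors 7 rose and 1, Meox2, fell (2 and 13 on the endothelial scale). Elk3 rose by 2.64 ± 0.26 (limma adjusted p = 5.8e-05), Sox18 by 2.47 ± 0.53 (limma adjusted p = 0.0063) and Ets1 by 1.71 ± 0.18 (limma adjusted p = 7.7e-05). Sox7 and Erg did not pass (0.89 ± 1.29 and 0.81 ± 0.61, limma adjusted p = 0.68 and 0.39). Immediate early and heat shock genes were 8 higher and 1 lower of 21, and none was higher and 8 were lower on the endothelial scale. Without type H replicate 3 or arterial replicate 2 the rises numbered 5. Fos was at 11.71, 11.15 and 11.97 against 9.77, 9.63 and 9.62 and rose by 1.94 ± 0.22 (limma adjusted p = 0.00013), Junb rose by 1.59 ± 0.20 (limma adjusted p = 0.00023) and Ier3 by 2.40 ± 0.31 (limma adjusted p = 0.00031).

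Genes of antigen presentation differed by class. None of the 8 MHC class II genes rose and 6 fell (8 on the endothelial scale), and for all 8 every arterial value lay above every type H value, against 22.9% of all genes. Without arterial replicate 2 the falls numbered 3. Cd74, the invariant chain, was at 5.67, 5.31 and 6.35 log2 CPM against 7.77, 7.77 and 7.78 and fell by 2.0 ± 0.28 (limma adjusted p = 0.00051), and H2-Ab1 fell by 2.88 ± 0.63 (limma adjusted p = 0.0075). B cell and macrophage markers moved with them, at medians of -4.03 and -3.82, and their part was not tested. Of 11 MHC class I genes 1 rose and none fell, against 7.96% and 12.7% of all genes, and 10 were not called. The gene that rose was the peptide-loading gene Tapbp (0.66 ± 0.18, limma adjusted p = 0.022, but 0.057 to 0.085 without type H replicate 1 or 2 or arterial replicate 1 or 2). On the endothelial scale none of the class I genes rose and 10 fell. B2m was at 11.17, 10.74 and 11.06 against 10.57, 10.58 and 10.77 and did not pass (0.35 ± 0.13, limma adjusted p = 0.079), but did without type H replicate 2 (0.48, limma adjusted p = 0.023). Interferon response genes were 2 higher and 1 lower of 18 (none and 14 on the endothelial scale), against 7.96% and 12.7% of all genes, and 15 were not called. Irf1 rose by 1.13 ± 0.21 (limma adjusted p = 0.0025) and Bst2 by 1.08 ± 0.25 (limma adjusted p = 0.0095). Mx1 had 0 reads in all type H libraries and 11 to 105 in the arterial, at least 16.4-fold lower (limma adjusted p = 0.019, but 0.064 and 0.054 without arterial replicate 1 or 2 and 0.053 and 0.11 with a pseudocount of 1 or 10 CPM). Among 14 genes that restrain immune responses 3 rose and 4 fell (1 and 10 on the endothelial scale). Nectin2, a ligand of lymphocyte checkpoint receptors, was at 8.25, 7.75 and 8.04 against 2.96, 2.48 and 2.48 and rose by 5.37 ± 0.49 (limma adjusted p = 4.2e-05). The galectin gene Lgals1 fell by 1.58 ± 0.15 (limma adjusted p = 5.8e-05).

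Vasoactive genes were 3 higher and 6 lower of 18 (none and 12 on the endothelial scale). Nos3, the endothelial nitric oxide synthase, was at 5.52, 5.92 and 4.93 log2 CPM against 4.68, 4.65 and 5.13 and did not pass (0.63 ± 0.80, limma adjusted p = 0.63). Gucy1b1, a subunit of the nitric oxide receptor, had 2 reads in the type H libraries together and 213 in the arterial, a ratio of 133 (95% exact interval 36.5 to 1108, counting error only). Ptgis, the prostacyclin synthase, fell by 7.09 ± 1.25 (limma adjusted p = 0.0021) and Pde5a, a phosphodiesterase of smooth muscle, by 6.69 ± 1.39 (limma adjusted p = 0.0056). Npr1, the natriuretic peptide receptor, rose by 2.53 ± 0.52 (limma adjusted p = 0.0052), and Ece1, which activates endothelin, by 1.77 ± 0.20 (limma adjusted p = 0.00013). Of the mural list 5 of 13 fell and 2 rose, while its read share was higher in the type H libraries, and its part in these values was not tested.

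Matrix genes separated by kind. Of 18 basement membrane genes 4 rose and none fell, with a median of 0.57, and none rose and 7 fell on the endothelial scale. The rises numbered 2 without any 1 type H replicate or without arterial replicate 1 or 3. Nid1, which links laminin and collagen IV, was at 9.73, 9.67 and 9.98 log2 CPM against 7.64, 8.14 and 7.95 and rose by 1.88 ± 0.29 (limma adjusted p = 0.00094). Col4a1, a chain of the network collagen, rose by 0.71 ± 0.20 (limma adjusted p = 0.025, but 0.052 to 0.090 without any 1 type H replicate or arterial replicate 1 or 3). Of 21 genes of elastic and interstitial matrix 15 fell and 1 rose, with a median of -3.89, and on the endothelial scale 20 fell and none rose. Col3a1 was at 2.28, -2.85 and 1.16 against 8.78, 9.23 and 8.77 and fell by 8.73 ± 0.96 (limma adjusted p = 0.00012), and Lox, which cross-links collagen and elastin, fell by 4.04 ± 0.37 (limma adjusted p = 4.3e-05). Eln itself was at 5.05, 3.53 and 4.43 against 4.24, 5.16 and 5.08 and did not pass (-0.49 ± 1.28, limma adjusted p = 0.83). Of 16 matrix proteases and inhibitors 4 rose and 6 fell (1 and 9 on the endothelial scale). Adamts5, an aggrecanase, was at 9.75, 9.11 and 9.78 against 5.30, 5.97 and 5.57 and rose by 3.93 ± 0.39 (limma adjusted p = 6.7e-05), and the inhibitor Timp3 rose by 2.51 ± 0.21 (limma adjusted p = 2.4e-05). Mmp13, a collagenase of cartilage and bone, was at 3.13, 4.07 and 4.60 against 8.87, 8.78 and 9.42 and fell by 5.09 ± 0.56 (limma adjusted p = 0.00012), and Mmp8 of neutrophils fell by 2.79 ± 0.36 (limma adjusted p = 0.00027).

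Cell cycle genes were lower in type H cells: 18 of 27 fell, none rose and the median was -2.29, with 25 lower on the endothelial scale. Without 1 library at a time between 12 and 22 fell. Mki67, the proliferation marker, was at 3.30, 6.45 and 4.14 log2 CPM against 7.66, 7.81 and 7.62 and fell by 3.07 ± 0.63 (limma adjusted p = 0.0051). Rrm2, which makes deoxynucleotides, was at 5.09, 5.30 and 4.3 against 8.52, 8.06 and 7.86 and fell by 3.25 ± 0.38 (limma adjusted p = 0.00018). Markers of dividing marrow cells, B cell precursors and erythroid cells among them, were lower in type H libraries too, and their part in this result was not tested. Genes of glycolysis and hypoxia were 6 higher and 4 lower of 22 (none and 13 on the endothelial scale). Epas1, the hypoxia factor of endothelium, rose by 1.28 ± 0.28 (limma adjusted p = 0.0071), the glucose carrier gene Slc2a1 by 1.67 ± 0.35 (limma adjusted p = 0.0058) and Ndrg1 by 2.10 ± 0.31 (limma adjusted p = 0.00074). The enzymes Tpi1 and Eno1 fell by 1.28 ± 0.22 and 0.72 ± 0.12 (limma adjusted p = 0.0019 and 0.0016).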

How the data were processed

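RNA-seq values were deposited by the authors as log2 CPM for 12 libraries. The submitters' processing notes name Trimmomatic, STAR, SAMtools, deepTools, featureCounts, R 4.3 and the build hg38, although the cells are from mouse. The scaling method and the use of strand are not given in the sources used here. The values gave whole reads, within 0.01 read, after 0.5 read was removed and library sizes inferred from the lowest value of each library. A gene was tested if 3 or more libraries held 10 reads or more of it after scaling to the mean library size. Group means of the log2 values were fitted over the 12 libraries with limma 3.58.1 in R 4.3.3 (trended variance), type H minus arterial, with Benjamini-Hochberg adjustment over all genes tested. Bounds for groups at 0 reads used a floor of 3 reads per library, and ratios of sums an exact 95% interval. Fitted differences of such genes depend on the 0.5 read added. Named genes were the 5 sorting antigens, the 15 largest rises and falls among called, well covered genes with a name and no overlap, and from each of 45 lists the first 4 genes and up to 5 with the smallest adjusted p. Of 625 list genes, 590 were listed in the table. The comparison, lists and tests were chosen with earlier results of these data known. Lists were described by counts and medians, with no set test. The fitting code was tested on simulated data. Other scalings, pseudocounts, filters, fits and the omission of each library were tried as alternatives. Promoters came from RefSeq GRCm38.p6 tables.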

Additional observations from a re-analysis of the deposited data

How the results depend on the processing

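Of the genes named, 175 passed the test and 24 did not. Among the 25 alternatives, leaving out that which made pan-endothelial medians equal, 151 of the 175 passed in every one and none turned its direction. Many of these genes were named for a small adjusted p or a large difference, so counts of them describe a selected set and not all genes. With equal pan-endothelial medians 10162 genes passed, 248 higher and 9914 lower, and 127 of the 175 named genes passed in the same direction. There the sign turned for Col4a1 (-1.09), Tapbp (-1.14), Vcam1 (-0.77), Bst2 (-0.72), Id3 (-0.68), Irf1 (-0.67), Hif1a (-0.64), Epas1 (-0.52), Hes1 (-0.27), Junb (-0.21), Gpihbp1 (-0.18), Entpd1 (-0.15), Slc2a1 (-0.13), Flt1 (-0.090), Ets1 (-0.089), Pecam1 (-0.069), Tspan12 (-0.064), Ece1 (-0.029), Tgfbr2 (-0.019) and Tnfrsf1a (-0.0023). The sign also turned, with a call, for Cd200 (-1.68), Vegfa (-1.61), Lifr (-1.59) and B2m (-1.45), which had not passed. Bmp4, Cd36, Efnb2, Gja4, Itgb1, Jag2, Ly6a, Prox1 and Vegfc, not called in the report, were called lower there without a change of sign, at -1.84 to -5.91. In the other alternatives the calls numbered 2581 to 4278, and 3 or 4 of the 5 sorting antigens passed, the fourth being Ly6a. Without 1 library at a time they numbered 2581 to 3726, with 979 to 1444 higher and 1524 to 2300 lower. Whether equal replicate numbers pair the samples could not be settled. Same-numbered deviations correlated at an r of 0.0128, 0.0101 and 0.0387 over 12183 genes, which are not independent replicates. Each library correlated best with the library of its own number, and the other pairs lay at -0.024 to 0.00909. With the replicate block 3439 genes passed over 12 libraries and 2618 over the 6 compared, where the 10 named genes Acta2, Col2a1, Hes1, Hey1, Igf1, Il6ra, Reln, Tapbp, Tspan12 and Vcam1 lost their call (limma adjusted p 0.056 to 0.084). Depth limited genes near 0 reads, where the floor lay at -2.48 to -1.43 log2 CPM.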

Other observations

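The genes in this section lie outside the gene lists and were chosen after their values were seen, so they are descriptions. Further endothelial surface genes were higher in type H cells. Clec14a, an endothelial lectin-like receptor, was at 10.18, 10.21 and 10.12 log2 CPM in type H and at 6.38, 5.48 and 6.18 in arterial libraries, and its matrix partner Mmrn2 was at 9.84, 9.81 and 9.92 against 5.52, 6.29 and 6.14. Gpm6a, a neuronal membrane glycoprotein, was at 11.20, 10.06 and 10.78 against 3.27, 4.06 and -1.43 log2 CPM. Ubd, a ubiquitin-like protein induced by inflammatory cytokines, was at 10.75, 10.33 and 10.50 against 1.87, 4.88 and 3.57. Slco2a1, which carries prostaglandins into cells, was at 9.01, 9.34 and 9.0 against -1.61, 3.80 and 2.93. Every type H value of these genes lay above every arterial value. Insr, the insulin receptor, rose by 3.37 ± 0.33, and Tcn2, which carries vitamin B12, by 3.31 ± 0.19 (limma adjusted p = 5.9e-05 and 3.1e-06).

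Cartilage collagen genes varied widely among the type H libraries. Col2a1, the main cartilage collagen, was at 8.02, -5.17 and -0.09 log2 CPM in type H and at 9.03, 9.43 and 8.61 in arterial libraries, so that type H replicate 1 lay near the arterial range. It passed with a limma adjusted p of 0.027, but not without type H replicate 2 or 3 or any 1 arterial replicate (0.063 to 0.078), nor with only the 6 libraries (0.093). Col10a1, of hypertrophic cartilage, was at -0.76, -5.17 and 3.13 against 9.28, 8.41 and 9.05, and its limma adjusted p of 0.023 became 0.054 to 0.080 without type H replicate 1 or 2 or any 1 arterial replicate. Fn1, fibronectin, was at 3.40, 3.50 and 1.32 against 8.23, 8.52 and 8.66 and fell by 5.73 ± 0.56 (limma adjusted p = 5.9e-05). Of the 13 protein genes of mitochondrial DNA 11 fell and none rose, against 12.7% and 7.96% of all genes. Their median difference was -0.93, with a range of -1.54 to -0.70.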
